A study of Mus musculus with 9 samples.

Results

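The comparison described here is between dark zone (DZ) and light zone (LZ) germinal center B cells that keep Foxo1, 6 of the 9 RNA-seq libraries of the series, 3 per zone. The 6 libraries were chosen by their labels, not by any measured value. The donor B cells of both groups were Foxo1(+/+) and CD45.1/1, with 1 knocked-in copy each (KI/+) of ERT2cre and of B1-8hi: they carried a knocked-in tamoxifen-dependent Cre with no floxed Foxo1 allele to cut, and a knocked-in B1-8hi heavy chain, which gives high affinity for the hapten NP. They had been transferred at equal numbers with CD45.1/2 cells that were Foxo1(f/f) and also had ERT2cre and B1-8hi, into C57BL/6 hosts, so both zones developed beside Foxo1-deficient cells. Hosts were immunized with NP-CGG in alum on day 0 and took tamoxifen by mouth on days 7, 8 and 9, and spleen cells were sorted on day 12, about 10000 per library. Both zones shared a gate on CD38- GL7+ B220+ NP+ cells that were CD45.1+ and CD45.2-, to which LZ cells added CD86hi CXCR4lo and DZ cells CD86lo CXCR4hi. The labels give neither the age of the mice nor whether libraries with different numbers are different mice. The p-values therefore set the zone difference against the variation of these 6 samples within zones, and that variation could be technical. The promoter that drives the Cre is not given either.

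Germinal center B cells pass between 2 compartments. In the dark zone they divide quickly and their antibody genes are mutated; in the light zone they take up antigen held on follicular dendritic cells, present it to T follicular helper cells and receive survival and growth signals such as those through CD40. CXCR4 draws cells to the dark zone and CXCR5 to the follicle and light zone, and Foxo1 is known to be needed for the dark zone state.

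The values were FPKM, which count sequenced fragments relative to transcript length and to the fragments mapped in a library, and a change is DZ minus LZ on log2(FPKM + 1), which understates the change of low genes. After exclusion of 716 entries with repeated symbols and 7 genes with a failed estimate, 22977 genes were left, of which 9463 had at least 1 FPKM in at least 3 of the 6 libraries and were tested with limma. In principal component analysis the first component took 33.4% of the variance and separated the zones, and the second, 20.8%, spread the LZ libraries. Pearson's r over genes was 0.938 to 0.944 within DZ, 0.905 to 0.913 within LZ and 0.894 to 0.914 between zones, so some pairs across zones were as alike as LZ pairs. DZ replicate 3 had the lowest mean level, 3.02 on the log2(FPKM + 1) scale against 3.26 to 3.45 in the other libraries. The median change of all tested genes was -0.15, and -0.06 without that library. The germinal center label was checked against its markers: Bcl6 was at 60.1 FPKM in LZ and 58.6 in DZ in mean level, Fas at 52.04 FPKM in LZ and 44.6 in DZ and Pax5 at 115 FPKM in LZ and 112 in DZ.

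Defining markers of T cells, myeloid cells and follicular dendritic cells were low. Cd3e, Cd3g and Cd4 (T cells), Csf1r, Cd14 and C1qa (macrophages), S100a8 (neutrophils) and Cxcl13 (follicular dendritic cells) were listed at 0 in all 6 libraries, and Lyz2, Itgam and Itgax reached at most 0.174, 0.365 and 0.0819 FPKM. The T cell markers Cd3d and Cd8a reached at most 1.05 and 0.364 FPKM. The neutrophil marker S100a9 was at 2.54 FPKM in DZ replicate 3 and at 0 elsewhere. The summed level of 27 macrophage and dendritic cell markers was 31.3 to 49.4 FPKM in LZ and 16.8 to 18.8 in DZ, led by Flt3, at 14.4, 23.2 and 9.42 FPKM in the LZ libraries and 5.91, 10.2 and 7.95 in the DZ libraries, and Cfp, described below. Summed T cell markers (21 genes) were at 29.0 to 35.1 FPKM in LZ and 15.5 to 20.7 in DZ, and Lck alone made up 27.4, 26.7 and 26.2 FPKM of the LZ sums and 12.9, 10.8 and 19.9 of the DZ sums. The largest gap was in 21 markers of naive and memory B cells, at 241 to 307 FPKM in LZ and 70.8 to 91.9 in DZ, and 4 of its 13 tested genes (Fcer2a, Cr2, Ccr6 and S1pr3) are LZ-high genes described below. These sums move with the LZ-high results, and their part in those results was not tested. Summed plasma cell genes (19) were at 334 to 348 FPKM in LZ and 315 to 499 in DZ. Summed erythroid and platelet markers (16 genes) were at 22.1 to 48.6 FPKM in LZ and 13.2 to 25.4 in DZ.

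**Figure D1:**
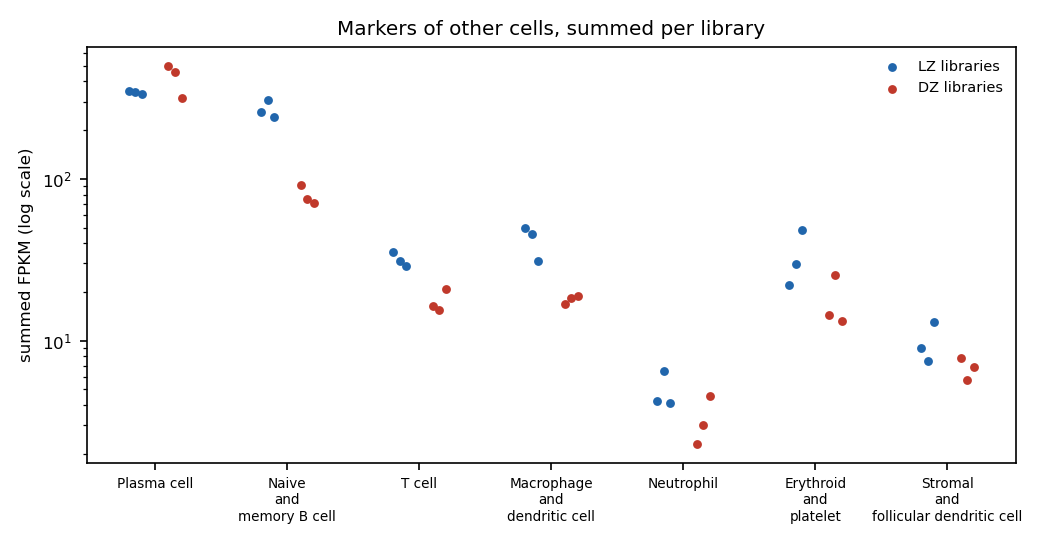
Summed FPKM (log scale) of marker lists of other cell types in each of the 3 LZ and 3 DZ libraries, 1 point per library. LZ libraries lie above DZ libraries for the naive and memory B cell, T cell, and macrophage and dendritic cell lists, and the zones overlap for plasma cell, neutrophil, erythroid and stromal lists.

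At an adjusted p under 0.05, 197 genes (2.08% of those tested) differed between the zones: 53 were higher in DZ (0.56%) and 144 lower (1.52%). The median change was -1.42 among genes lower in DZ and 1.25 among genes higher, and for the same genes it was -1.26 and 1.42 under median centring, so which side had the larger sizes turned with the scaling. Of 413 genes with a change of -1 or below, 118 passed, and of 153 with a change of 1 or above, 42 did. More genes separated the zones without passing: in 2169 genes (22.9%) the 3 DZ and 3 LZ values did not overlap, 495 with DZ above (5.23%) and 1674 with DZ below (17.7%), and all 197 called genes were among them. The surplus of lower genes moved with the scaling, since centring each library on its median gave 249 calls, 124 higher and 125 lower, and quantile normalization gave 100 higher and 145 lower. The share called rose with abundance, from 0.677% of genes under 5 FPKM to 7.4% of genes at 100 FPKM or more, as the median SE fell from 0.358 to 0.159. Leaving out 1 library at a time left 78 to 130 calls, and 50 of the 197 (8 higher and 42 lower) were called in all 6 such fits. A set of 32 genes passed in these 6 fits and in all 9 other settings tried before any was added. Its 7 genes higher in DZ were Gcet2, Serinc5, Anxa2, Blvrb, Cmpk1, Rabl5 and 8430410A17Rik. Its 25 genes lower in DZ included Ccnd2, Fcer2a, Cd40, Cd83, Cd86, Tnfrsf14, Lmo2, Nfil3, Cr2, Cd22, Lat2, Slamf1, Ifi30, S1pr3, Bcl2a1a, Bcl2a1b and Bcl2a1d. The no-filter alternative alone left 42 of the 197 calls and voom weights alone left 68, so most calls below hold under the expression filter and weighting used. Where other settings are named after a gene, each was tried by itself. Losses with the replicate block and with voom on implied fragments are listed by gene further below. Counts of list members below can be read beside the shares of all tested genes given above.

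**Figure D2:**
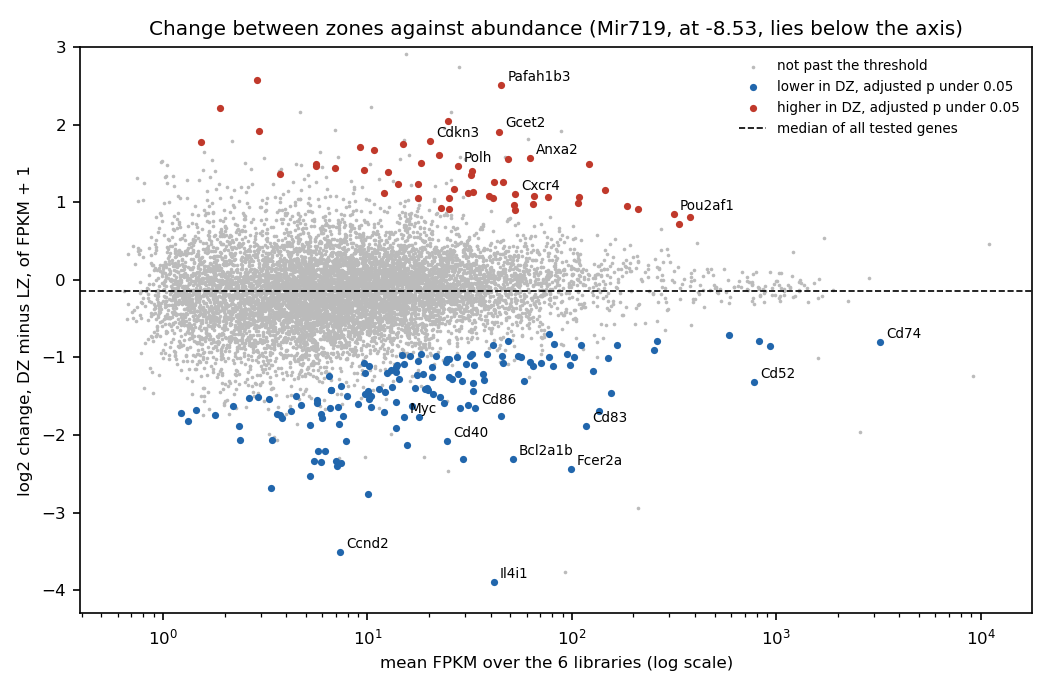
Log2 change, DZ minus LZ, of FPKM + 1 against mean FPKM over the 6 libraries (log axis) for 9463 tested genes, with 53 genes higher in DZ in red and 144 lower in blue. Calls on the LZ side reach larger sizes than those on the DZ side, and the dashed line marks the median of all tested genes, -0.15.

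The 2 receptors of the gate separated the libraries at the RNA level. The sort used their surface protein, so their RNA is a check on the labels and not a finding. Cxcr4, the receptor for the dark zone chemokine CXCL12, was at 28.9, 32.96 and 37.9 FPKM in the LZ libraries and 78.5, 79.5 and 59.6 in the DZ libraries (log2 change 1.099, SE 0.19, adjusted p = 0.0171). Cd86, a costimulatory ligand for CD28 on T cells, was at 52.4, 58.3 and 44.3 FPKM in the LZ libraries and 16.9, 18.2 and 12.5 in the DZ libraries (log2 change -1.65, SE 0.20, adjusted p = 0.00452). All 3 DZ libraries lay above all 3 LZ libraries for Cxcr4 and below them for Cd86. Foxo1 itself was at 14.8, 18.7 and 22.1 FPKM in the LZ libraries and 24.5, 19.5 and 19.1 in the DZ libraries, overlapping between zones, and did not pass (log2 change 0.18, SE 0.22, adjusted p = 0.727). Cd38, whose protein was gated out in both zones, was at 3.94, 6.74 and 7.03 FPKM in LZ and 2.85, 2.75 and 2.50 in DZ. Ptprc, which encodes CD45, was at 159, 180 and 162 FPKM in LZ and 120, 112 and 103 in DZ. Neither overlapped between zones, and neither passed (log2 change -0.87, adjusted p = 0.174, and -0.58, adjusted p = 0.0752). Ptprc passed with all 9 libraries in the fit. The call of Cd86 held in all 6 fits that left out 1 library. Cxcr4 (without DZ 1, DZ 2, LZ 1 or LZ 2, adjusted p up to 0.0778) lost its call.

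Of the other 19 genes tested among positioning receptors and their signalling partners, S1pr3 and Ccr6 fell in DZ (1.52% of all tested genes did) and none rose. S1pr3, a sphingosine-1-phosphate receptor linked to marginal zone B cells, was at 18.2, 13.2 and 17.5 FPKM in the LZ libraries and 4.03, 5.19 and 4.32 in the DZ libraries (log2 change -1.64, SE 0.24, adjusted p = 0.0096). Ccr6, the receptor for the chemokine CCL20, was at 1.07, 3.12 and 3.12 FPKM in LZ and listed at 0 in all 3 DZ libraries (adjusted p = 0.04996). These values do not overlap between zones for either gene, but Ccr6 was low everywhere. Cxcr5, which guides B cells into follicles, was at 64.8 ± 9.57 FPKM in LZ and 42.8 ± 5.61 in DZ (SD, n = 3) and did not pass (log2 change -0.59, SE 0.18, adjusted p = 0.134). S1pr2 and Gna13, which confine cells to the germinal center, had changes of 0.21 (95% interval -0.18 to 0.60) and 0.21 (-0.17 to 0.59). The call of S1pr3 held in all 6 fits that left out 1 library. Ccr6 (without DZ 1, DZ 2, DZ 3, LZ 2 or LZ 3, adjusted p up to 0.153) lost its call. Ccr6 (with median centring, quantile normalization, a pseudocount of 0.1 and a pseudocount of 5) also lost its call.

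Gcet2 (germinal center expressed transcript 2, chromosome 16, 45610553 to 45622980 in mm9), whose protein restrains the movement of germinal center B cells, had the smallest adjusted p of any gene higher in DZ. It was at 17.01, 20.7 and 16.2 FPKM in the LZ libraries and 74.8, 73.3 and 62.3 in the DZ libraries (log2 change 1.91, SE 0.18, adjusted p = 0.000881). No library of one zone came near the range of the other. Among 34 regulators of adhesion and the cytoskeleton, 1 rose and 3 fell, beside 0.56% and 1.52% of all tested genes. Anxa2, an actin- and membrane-binding annexin, was at 30.6, 26.8 and 35.5 FPKM in the LZ libraries and 90.8, 99.8 and 90.3 in the DZ libraries (log2 change 1.57, SE 0.17, adjusted p = 0.00197), with tight and separate groups. Dock10, an exchange factor for Cdc42 and Rac, fell from 25.6 to 7.43 FPKM in mean level (log2 change -1.63, SE 0.24, adjusted p = 0.0088), and the actin-binding protein kinase C substrate Marcks and the tetraspanin Cd82 fell by 1.24 and 1.09 on the log2 scale (adjusted p = 0.0454 and 0.012). The calls of Gcet2, Anxa2 and Dock10 held in all 6 fits that left out 1 library. Marcks (without any 1 library, adjusted p up to 0.139) and Cd82 (without DZ 1 or LZ 2, adjusted p up to 0.0513) lost their calls. Marcks (with median centring, quantile normalization and a pseudocount of 0.1) also lost its call.

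Of 43 transcription factors tested that act in B cells and the germinal center stage, 1 rose and 2 fell in DZ, beside 0.56% and 1.52% of all tested genes, and their median change was -0.10 beside -0.15 over all tested genes, turning to 0.07 under median centring. Pou2af1 (OBF-1), the B cell coactivator that germinal centers require, was at 241, 239.5 and 195 FPKM in the LZ libraries and 423, 407 and 383 in the DZ libraries (log2 change 0.85, SE 0.14, adjusted p = 0.017). Lmo2, a LIM-domain adaptor of transcription complexes, was at 30.2, 29.1 and 25.1 FPKM in the LZ libraries and 7.61, 8.21 and 6.702 in the DZ libraries (log2 change -1.77, SE 0.20, adjusted p = 0.00301). Runx3, a Runt-domain factor, was at 6.61, 7.803 and 4.98 FPKM in the LZ libraries and 1.69, 0.765 and 1.07 in the DZ libraries (log2 change -1.78, SE 0.31, adjusted p = 0.0194). In each of these 3 genes the zones did not overlap. The change of Bcl6, the master repressor of the stage, was -0.04 (95% interval -0.46 to 0.37), and that of Pax5, the factor of B cell identity, was -0.05 (-0.42 to 0.32); both turned positive under median centring and quantile normalization. Bach2, which holds back plasma cell differentiation, had a change of 0.63 (0.18 to 1.08, adjusted p = 0.154). The plasma cell factor Irf4 was at 8.97, 11.6 and 8.66 FPKM in the LZ libraries and 2.44, 5.52 and 1.71 in the DZ libraries and its AP-1 partner Batf at 46.8, 34.8 and 12.7 FPKM in the LZ libraries and 2.82, 13.4 and 2.68 in the DZ libraries. The zones did not overlap for Irf4 and overlapped for Batf, and neither passed (log2 change -1.44, SE 0.35, adjusted p = 0.0666, and -2.29, SE 0.56, adjusted p = 0.0738). Batf was named after its values were seen. The call of Lmo2 held in all 6 fits that left out 1 library. Pou2af1 (without DZ 1, DZ 2, LZ 2 or LZ 3, adjusted p up to 0.0778) and Runx3 (without DZ 2, DZ 3, LZ 1 or LZ 2, adjusted p up to 0.0764) lost their calls.

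Genes of late cell division were among those higher in DZ. In the 142 genes of 4 lists (mitotic kinases and anaphase control, kinetochore, spindle and cytokinesis, chromosome condensation), 12 rose in DZ, 0 fell (2 at an unadjusted p under 0.05, and 0 with voom weights), and 118 had a change above 0, with a median of 0.32 beside -0.15 over all genes. The DZ libraries lay above the LZ libraries without overlap in 52 of the 142, against 5.23% of all tested genes. The mean level of the 142 genes on the log2(FPKM + 1) scale was 3.88, 4.07 and 3.99 in the LZ libraries and 4.42, 4.38 and 4.16 in the DZ libraries, so DZ replicate 3, whose overall level was lowest, was also the lowest DZ library here. When 1 library was left out, 0 to 9 of these genes were called higher, and none without DZ replicate 1. At most 1 of them was called lower in such a fit. The list medians kept their sign in every setting tried. With 1 library left out, the median of the 142 genes together was 0.28 to 0.39. That of the kinetochore list was 0.075 to 0.318, and those of the other lists lay between 0.286 and 0.460.

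Among the regulators of mitotic entry and exit, 6 of 32 rose, beside 0.56% of all tested genes. Cdc25b, the phosphatase that starts mitosis by activating CDK1, was at 24.3, 32.3 and 24.02 FPKM in the LZ libraries and 75.1, 63.95 and 57.8 in the DZ libraries (log2 change 1.26, SE 0.19, adjusted p = 0.0106). Ccnb2, cyclin B2, was at 18.8, 21.1 and 34.4 FPKM in the LZ libraries and 63.9, 59.95 and 51.9 in the DZ libraries (log2 change 1.25, SE 0.23, adjusted p = 0.0237). Nek2, a kinase that splits centrosomes, was at 6.096, 6.82 and 15.98 FPKM in the LZ libraries and 26.8, 28.7 and 25.2 in the DZ libraries (log2 change 1.51, SE 0.31, adjusted p = 0.0377). LZ replicate 3 was the highest LZ library for both Ccnb2 and Nek2 and still lay under every DZ library. Cdkn3, a phosphatase that acts on CDKs, was at 6.78, 7.17 and 10.2 FPKM in the LZ libraries and 44.4, 35.8 and 16.5 in the DZ libraries (log2 change 1.79, SE 0.34, adjusted p = 0.0255), with a wide spread within DZ. Cdc20 and Ube2c, an activator and the ubiquitin-conjugating enzyme of the anaphase-promoting complex, were named after their values were seen. Cdc20 was at 22.4, 27.1 and 29.3 FPKM in the LZ libraries and 55.9, 69.3 and 43.3 in the DZ libraries (log2 change 1.05, SE 0.21, adjusted p = 0.0309), and its locus overlaps Elovl1 in the files, whose mean level did not move with it (18.6 FPKM in LZ and 12.4 in DZ). Ube2c was at 40.6, 32.9 and 35.2 FPKM in the LZ libraries and 72.7, 75.1 and 58.1 in the DZ libraries (log2 change 0.899, SE 0.18, adjusted p = 0.0289). Plk1, Aurka and Ccnb1 lay above 0 without passing, with changes of 0.86, 0.84 and 0.84 (adjusted p = 0.082, 0.0911 and 0.101), and Pttg1, the securin, had a change of -1.14 (adjusted p = 0.161). Cdc25b (without DZ 1, adjusted p up to 0.0513), Ccnb2 (without DZ 1, DZ 2, DZ 3, LZ 1 or LZ 2, adjusted p up to 0.0895) and Nek2 (without DZ 1, DZ 2, DZ 3, LZ 1 or LZ 2, adjusted p up to 0.129) lost their calls. Cdkn3 (without DZ 1, DZ 2, LZ 1 or LZ 2, adjusted p up to 0.0899), Cdc20 (without DZ 1, DZ 2, LZ 1, LZ 2 or LZ 3, adjusted p up to 0.114) and Ube2c (without DZ 1, DZ 2, LZ 1, LZ 2 or LZ 3, adjusted p up to 0.111) lost their calls. Nek2 (with a pseudocount of 0.1) also lost its call.

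Promoters of 4 of these genes are shown because mitotic genes are known to share 2 short elements, the cell cycle genes homology region (CHR, here TTTGAA or TTCGAA) and the CCAAT box. The 150 bases before the RefSeq transcription start (build GRCm38.p6, not the mm9 build of the expression files) are given 5′ to 3′ on the gene's strand, with every CHR and CCAAT match on either strand in capitals. Their positions are chr4:118437344-118437493, minus strand (Cdc20), chr2:164769779-164769928, plus strand (Ube2c), chr9:70421555-70421704, minus strand (Ccnb2) and chr14:46760391-46760540, plus strand (Cdkn3).
Cdc20: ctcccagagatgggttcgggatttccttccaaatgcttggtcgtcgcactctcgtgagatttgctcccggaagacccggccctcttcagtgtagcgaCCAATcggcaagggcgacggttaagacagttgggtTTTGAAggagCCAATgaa
Ube2c: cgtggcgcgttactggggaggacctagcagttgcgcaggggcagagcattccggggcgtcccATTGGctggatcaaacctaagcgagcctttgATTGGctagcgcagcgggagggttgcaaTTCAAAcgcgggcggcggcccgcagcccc
Ccnb2: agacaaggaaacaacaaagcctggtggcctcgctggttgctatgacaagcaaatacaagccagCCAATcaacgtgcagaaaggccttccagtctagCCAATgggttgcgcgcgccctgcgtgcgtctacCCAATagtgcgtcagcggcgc
Cdkn3: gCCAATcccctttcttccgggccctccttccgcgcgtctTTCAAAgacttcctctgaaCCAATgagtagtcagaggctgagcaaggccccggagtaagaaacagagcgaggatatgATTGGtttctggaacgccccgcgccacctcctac
In these windows Cdc20, Ube2c and Cdkn3 hold both elements, and no match of one element overlaps a match of the other. Ccnb2 holds CCAAT boxes here and has a CHR match elsewhere in its full window of 300 bases. Of the mitotic regulators that rose and are not shown, Cdc25b holds both elements in its full window and Nek2 the CCAAT box alone. Over full windows of 300 bases (250 before and 50 after the start), a CHR match on either strand was present in 14.5% of the 6138 tested genes with 1 RefSeq window, in 11 of 33 genes higher in DZ (33.3%), in 13 of 90 genes lower in DZ (14.4%) and in 64 of the 106 mitosis-list genes (60.4%). Outside the mitosis lists, 2 of 21 genes higher in DZ held it (9.52%). A CCAAT box was present in 41.4% of all, in 20 of 33 higher (60.6%; 9 of 21 outside the mitosis lists, 42.9%) and in 36 of 90 lower genes. The other motifs searched, CACGTG (bound by Myc with Max) and GTAAACA (bound by forkhead factors such as Foxo1), were found in 10.9% and 2.48% of all windows and in 3 and 2 of the 33 genes higher in DZ. A match is a description of the letters and does not show binding.

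The centromere and spindle lists gave fewer calls. Of 40 kinetochore and centromere genes, Cenpa, Cdca8 and Nuf2 rose, beside 0.56% of all tested genes. Cenpa, the histone H3 variant that marks centromeres, was at 19.9, 11.1 and 17.5 FPKM in the LZ libraries and 39.5, 39.6 and 31.1 in the DZ libraries (log2 change 1.17, SE 0.24, adjusted p = 0.0344). Cdca8 (borealin, a subunit of the chromosomal passenger complex) and Nuf2 (a subunit of the microtubule-binding NDC80 complex) had changes of 1.08 and 0.91 (adjusted p = 0.0344 and 0.0391). Racgap1, a GTPase activating protein of the central spindle, was the sole rise of 47 spindle and cytokinesis genes, at 15.8, 19.9 and 12.7 FPKM in the LZ libraries and 37.6, 33.8 and 30.6 in the DZ libraries (log2 change 1.05, SE 0.21, adjusted p = 0.0327), although 42 of the 47 had a change above 0. Of 25 condensation genes the 2 that rose were abundant: Hmgb2 was at 161, 146 and 130.2 FPKM in the LZ libraries and 298, 296 and 236 in the DZ libraries (log2 change 0.92, SE 0.16, adjusted p = 0.0171) and Hmgn2, which binds nucleosomes, at 284, 255 and 216 FPKM in the LZ libraries and 445, 446 and 353 in the DZ libraries (log2 change 0.72, SE 0.16, adjusted p = 0.0499). No library of one zone reached into the range of the other in any of these 6 genes. Mki67, the proliferation marker, was at 66.2, 98.05 and 85.7 FPKM in the LZ libraries and 115, 122 and 118 in the DZ libraries and did not pass (adjusted p = 0.163). Cenpa (without DZ 1, DZ 2, DZ 3, LZ 2 or LZ 3, adjusted p up to 0.12), Cdca8 (without DZ 1, DZ 2, LZ 1 or LZ 3, adjusted p up to 0.128) and Nuf2 (without DZ 1, DZ 2, DZ 3, LZ 1 or LZ 2, adjusted p up to 0.134) lost their calls. Racgap1 (without DZ 1, DZ 2, DZ 3, LZ 1 or LZ 3, adjusted p up to 0.124), Hmgb2 (without DZ 1, DZ 2, LZ 2 or LZ 3, adjusted p up to 0.0795) and Hmgn2 (without DZ 1, DZ 2, LZ 1, LZ 2 or LZ 3, adjusted p up to 0.165) lost their calls. Hmgn2 (with a pseudocount of 0.1) also lost its call.

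**Figure D3:**
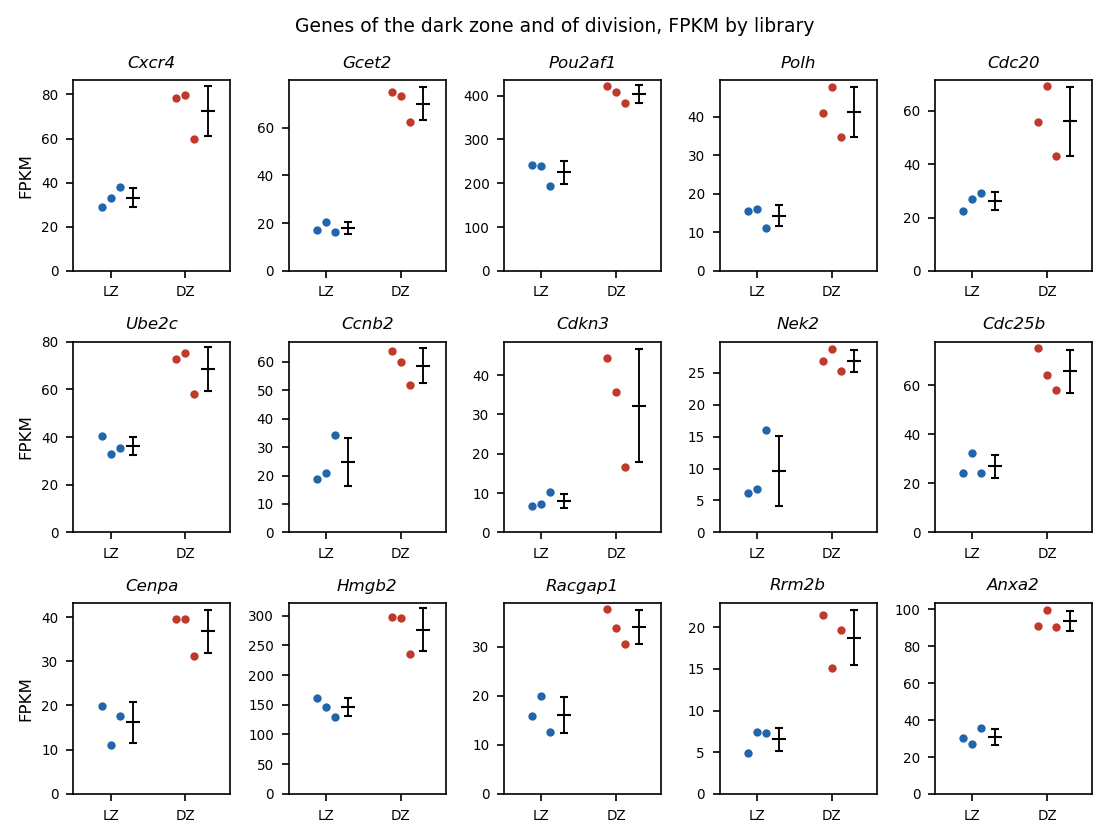
FPKM of 15 genes of the dark zone and of division in each library, with blue points for the 3 LZ and red points for the 3 DZ libraries and a black bar for the mean ± SD of each group. For every gene shown the 3 DZ values lie above the 3 LZ values, and all 15 passed at an adjusted p under 0.05.

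Of 47 S phase genes 1 rose, 30 were above 0, and the median change was 0.13. In limma 0 of 61 replication-dependent histone genes passed, yet 56 had a change above 0 and their median was 0.55; 17 had an unadjusted p under 0.05, all higher in DZ, and 1 was called with voom weights. The mean histone level on the log2(FPKM + 1) scale was 3.32, 2.96 and 3.59 in the LZ libraries and 3.68, 3.56 and 4.25 in the DZ libraries, so the groups overlapped slightly, and DZ replicate 3, lowest in most lists, was highest here. Histone messages of this kind lack a poly(A) tail and many are near-identical copies, so their FPKM are uncertain. Of the cyclins of G1, 1 gene fell. Ccnd2, cyclin D2, which carries mitogenic signals into the cell cycle, fell almost to 0, from 13.9, 15.2 and 13.8 FPKM in LZ to 0.615, 0.0844 and 0.389 in DZ (log2 change -3.505, SE 0.29, adjusted p = 0.000586). Ccnd3, cyclin D3, was more abundant, at 71.8 ± 7.92 FPKM in LZ and 94.97 ± 15.6 in DZ (SD, n = 3), with a change of 0.39 (adjusted p = 0.292). Of 24 genes for D and E cyclins, their kinases and inhibitors, Ccnd2 alone passed. The call of Ccnd2 held in all 6 fits that left out 1 library.

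Of 27 genes of somatic hypermutation and mismatch repair, Polh rose and none fell. Polh, DNA polymerase eta (chromosome 17, 46308942 to 46339574 in mm9), which copies across lesions and is the source of most mutations at A:T pairs, was at 15.5, 16.2 and 11.2 FPKM in the LZ libraries and 40.8, 47.6 and 34.7 in the DZ libraries (log2 change 1.46, SE 0.21, adjusted p = 0.00948). Its lowest DZ library was above its highest LZ library by more than the range of the LZ group. Ung, a glycosylase that removes uracil from DNA, had a change of -0.47 (adjusted p = 0.477), and the mismatch repair gene Msh6 had 0.36 (adjusted p = 0.319). Neil1, a DNA glycosylase on the germinal center marker list, was at 75.1, 65.3 and 65.05 FPKM in the LZ libraries and 178, 162 and 103 in the DZ libraries (log2 change 1.06, SE 0.21, adjusted p = 0.0295). In limma 0 of 35 genes of double-strand break repair and class switching passed, with 2 higher and 4 lower at an unadjusted p under 0.05 and 0 called with voom weights. The call of Polh held in all 6 fits that left out 1 library. Neil1 (without DZ 1, DZ 2, LZ 1, LZ 2 or LZ 3, adjusted p up to 0.106) lost its call.

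Of 28 genes of nucleotide synthesis 2 rose, among them Rrm2b, and 0 fell; the list's median was -0.15, equal to that of all genes. Rrm2b, a p53-induced subunit of ribonucleotide reductase, was at 4.92, 7.42 and 7.33 FPKM in the LZ libraries and 21.5, 15.1 and 19.6 in the DZ libraries (log2 change 1.39, SE 0.25, adjusted p = 0.0202). The next 3 genes, of nucleoside salvage and phosphorylation, are outside that list and were named after their values were seen. Dck, deoxycytidine kinase, was at 36.7, 53.9 and 34.9 FPKM in the LZ libraries and 89.9, 85 and 89.1 in the DZ libraries (log2 change 1.08, SE 0.19, adjusted p = 0.0194). Ada, adenosine deaminase, was at 35.7, 37.7 and 31.3 FPKM in the LZ libraries and 82.6, 65.3 and 60.5 in the DZ libraries (log2 change 0.96, SE 0.18, adjusted p = 0.0244). Cmpk1, which phosphorylates CMP and UMP, was at 53.2, 45.1 and 47.9 FPKM in the LZ libraries and 111, 100.5 and 98.7 in the DZ libraries (log2 change 1.07, SE 0.15, adjusted p = 0.00846). The zones did not overlap in any of the 4 genes, and the SD within a zone was small for Cmpk1. The call of Cmpk1 held in all 6 fits that left out 1 library. Rrm2b (without DZ 1, DZ 3 or LZ 1, adjusted p up to 0.0882), Dck (without DZ 1, DZ 2, DZ 3, LZ 1 or LZ 3, adjusted p up to 0.0793) and Ada (without DZ 1, DZ 2, LZ 1, LZ 2 or LZ 3, adjusted p up to 0.0971) lost their calls.

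The other genes with the largest rises in DZ have varied roles. Pafah1b3, a subunit of platelet-activating factor acetylhydrolase, was at 23.4, 17.96 and 3.99 FPKM in the LZ libraries and 90.5, 70.3 and 64.2 in the DZ libraries (log2 change 2.51, SE 0.48, adjusted p = 0.0266). Myl4, a myosin light chain, was at 8.3, 3.52 and 20.03 FPKM in the LZ libraries and 43.6, 33.4 and 39.1 in the DZ libraries (log2 change 2.04, SE 0.44, adjusted p = 0.0463), with the LZ libraries widely spread. Serinc5, a membrane protein that restricts retroviruses, was at 5.39, 4.51 and 4.07 FPKM in the LZ libraries and 16.8, 18.6 and 15.4 in the DZ libraries (log2 change 1.67, SE 0.23, adjusted p = 0.00766). Both groups were narrow in Serinc5, unlike in the other 2. Otub2, a deubiquitinase, and Sepp1, selenoprotein P, rose by 1.72 and 1.75 (adjusted p = 0.0117 and 0.011). H1fx, a linker histone, rose by 1.604 (adjusted p = 0.0194), and 8430410A17Rik, which lies within 100 kb of it on chromosome 6, rose by 1.49 (adjusted p = 0.00443). Dnase1 was at 0 in the 3 LZ libraries and 3.11, 2.701 and 5.64 FPKM in DZ, Tmsb15b2 at 0, 0.000171 and 0 and 2.08, 5.24 and 10.04, and Adhfe1 at 0, 0.34 and 0 and 4.59, 1.87 and 2.397; these 3 passed at low levels and Dnase1 overlaps Trap1 in the files. Tifa, a TRAF-interacting adaptor, was at 0.307, 1.09 and 0.647 FPKM in the LZ libraries and 5.31, 4.62 and 5.76 in the DZ libraries (log2 change 1.91, SE 0.32, adjusted p = 0.0161) and was the 1 gene of the NF-kB list that rose. The calls of Serinc5 and 8430410A17Rik held in all 6 fits that left out 1 library. Pafah1b3 (without DZ 1, DZ 2, DZ 3 or LZ 2, adjusted p up to 0.0914), Myl4 (without DZ 1, DZ 2, DZ 3, LZ 1 or LZ 2, adjusted p up to 0.15) and Otub2 (without DZ 1 or DZ 2, adjusted p up to 0.0543) lost their calls. Sepp1 (without DZ 1, adjusted p up to 0.052), H1fx (without DZ 1, DZ 2 or LZ 2, adjusted p up to 0.0778) and Dnase1 (without DZ 3, adjusted p up to 0.0534) lost their calls. Tmsb15b2 (without DZ 2, DZ 3, LZ 1 or LZ 2, adjusted p up to 0.0677), Adhfe1 (without any 1 library, adjusted p up to 0.146) and Tifa (without DZ 1, DZ 2 or DZ 3, adjusted p up to 0.0709) lost their calls. Myl4 (with median centring, quantile normalization, all 9 libraries in the fit and a pseudocount of 0.1), H1fx (with all 9 libraries in the fit) and Adhfe1 (with a pseudocount of 0.1 and a pseudocount of 5) also lost their calls.

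NF-kB, the Rel-family factors that CD40 and the antigen receptor switch on, was described through its subunits, inhibitors and known targets. Of 35 such genes tested, 13 were lower in DZ and 33 had a change below 0, with a median of -0.81 beside -0.15 over all genes and 1.52% called lower. In 23 of the 35 the DZ libraries lay below the LZ libraries without overlap, against 17.7% of all genes. The mean level of the list on the log2(FPKM + 1) scale was 4.04, 4.2 and 4.19 in the LZ libraries and 3.34, 3.33 and 3.13 in the DZ libraries. When 1 library was left out, 6 to 10 of its genes were called lower. The subunits split: Nfkb2, the p100/p52 subunit of the alternative pathway, was at 33.4, 38.5 and 34.7 FPKM in the LZ libraries and 17.3, 14.7 and 11.6 in the DZ libraries (log2 change -1.25, SE 0.20, adjusted p = 0.0144), while Rela, the main activating subunit, had a change of -0.05 (95% interval -0.50 to 0.39). Rel and Relb had changes of -0.86 and -0.66 without passing (adjusted p = 0.115 and 0.302). The difference between subunits was not tested.

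Of the inhibitors on the list Nfkbia, Nfkbie and Tnfaip3 fell, while Nfkbib, Nfkbid, Nfkbiz, Tnip1 and Tnip2 had changes of -0.49, -1.59, -1.21, -0.21 and -0.64 without passing (adjusted p = 0.45, 0.0694, 0.0848, 0.683 and 0.48). Nfkbia, the inhibitor IkB-alpha, was at 47.6, 57.7 and 54 FPKM in the LZ libraries and 23.1, 24.1 and 16.8 in the DZ libraries (log2 change -1.29, SE 0.20, adjusted p = 0.0111). Nfkbie, IkB-epsilon, was at 25.7, 31.2 and 17.9 FPKM in the LZ libraries and 11.3, 7.697 and 10.8 in the DZ libraries (log2 change -1.23, SE 0.26, adjusted p = 0.0376), and Tnfaip3, the ubiquitin-editing enzyme A20, at 13.6, 10.2 and 9.801 FPKM in the LZ libraries and 4.06, 3.62 and 3.43 in the DZ libraries (log2 change -1.36, SE 0.25, adjusted p = 0.0225). Each of these had all 3 DZ libraries under all 3 LZ libraries. Targets with other roles fell with them. Cd83, a surface protein that marks light zone cells and stabilizes MHC class II, was at 211, 163 and 182 FPKM in the LZ libraries and 50.6, 46.5 and 50.8 in the DZ libraries (log2 change -1.88, SE 0.16, adjusted p = 0.000586). Birc3, a ubiquitin ligase of the alternative pathway, and Bcl3, an atypical IkB, had changes of -1.097 and -1.21 (adjusted p = 0.0209 and 0.0307). Ebi3, a cytokine subunit, was at 7.67, 13.2 and 7.92 FPKM in the LZ libraries and 3.403, 1.78 and 1.49 in the DZ libraries (log2 change -1.72, SE 0.33, adjusted p = 0.0266). Ccl22, a chemokine that attracts T cells through CCR4, was at 7.2, 8.85 and 3.696 FPKM in the LZ libraries and 0.409, 0 and 0 in the DZ libraries (adjusted p = 0.00766). Apart from Ccl22, the genes of this paragraph and Nfkb2 were named after their values were seen. The calls of Cd83, Ccl22 and Nfkbia held in all 6 fits that left out 1 library. Nfkb2 (without LZ 2, adjusted p up to 0.0574), Nfkbie (without DZ 1, DZ 2, DZ 3, LZ 1 or LZ 2, adjusted p up to 0.129) and Tnfaip3 (without DZ 1, DZ 2, DZ 3, LZ 1 or LZ 2, adjusted p up to 0.0775) lost their calls. Birc3 (without DZ 2, DZ 3, LZ 1, LZ 2 or LZ 3, adjusted p up to 0.0798), Bcl3 (without any 1 library, adjusted p up to 0.0971) and Ebi3 (without DZ 2, DZ 3, LZ 1 or LZ 2, adjusted p up to 0.0997) lost their calls. Nfkbie (with median centring and quantile normalization) and Bcl3 (with median centring and quantile normalization) also lost their calls.

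Promoters of 3 of these genes are shown because they hold a kappaB motif in the 150 bases before the RefSeq start (GRCm38.p6). They are given 5′ to 3′ on the gene's strand with the matched letters in capitals. They are at chr12:55492648-55492797, minus strand (Nfkbia), chr17:45555550-45555699, plus strand (Nfkbie) and chr17:55952473-55952622, plus strand (Ebi3).
Nfkbia: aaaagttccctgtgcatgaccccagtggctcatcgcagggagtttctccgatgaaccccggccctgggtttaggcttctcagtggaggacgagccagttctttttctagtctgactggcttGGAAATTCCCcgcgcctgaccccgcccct
Nfkbie: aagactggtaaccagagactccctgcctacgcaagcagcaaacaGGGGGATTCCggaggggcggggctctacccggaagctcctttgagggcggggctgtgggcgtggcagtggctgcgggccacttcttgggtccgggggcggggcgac
Ebi3: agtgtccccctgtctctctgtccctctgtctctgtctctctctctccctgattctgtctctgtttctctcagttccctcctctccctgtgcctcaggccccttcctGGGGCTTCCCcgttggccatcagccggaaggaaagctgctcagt
The kappaB motif was found on either strand in 4.87% of all 300-base windows, in 11 of 90 genes lower in DZ (12.2%; 7 of 80 outside the NF-kB list, 8.75%), in 2 of 33 genes higher (6.06%) and in 7 of the 24 NF-kB-list genes with 1 window (29.2%). The NF-kB list was made from known targets, so its share is no independent result. Of the genes above that are not shown, Bcl3 holds a match in its full window of 300 bases, and Birc3 and Ccl22 hold none. Cd83, Nfkb2 and Tnfaip3 were not among the genes with 1 RefSeq window.

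The survival genes that fell were mainly the A1 genes, Bcl2 relatives that protect against apoptosis and are induced by NF-kB. Of 28 survival and death genes 5 fell (1.52% of all tested genes did) and none rose, with a median of -0.14 (0.03 under median centring). Bcl2a1b was at 101, 72.2 and 85.4 FPKM in the LZ libraries and 13.04, 19.9 and 16.9 in the DZ libraries (log2 change -2.31, SE 0.21, adjusted p = 0.000867). Bcl2a1d and Bcl2a1a fell by 2.31 and 2.13 (adjusted p = 0.000881 and 0.00301); the 3 are near-identical copies, so the split of fragments among them is uncertain, but all moved one way. Bcl2l1, which encodes Bcl-xL, was at 8.35, 9.68 and 8.66 FPKM in the LZ libraries and 2.73, 1.88 and 2.601 in the DZ libraries (log2 change -1.55, SE 0.26, adjusted p = 0.0176). Bid, a BH3-only death gene, fell from 52.8 to 29.1 FPKM in mean level (log2 change -0.83, adjusted p = 0.0308). No DZ library reached the LZ range in these genes. Mcl1, which germinal center B cells depend on, had a change of -0.06 (95% interval -0.44 to 0.33), and Fas, the death receptor, -0.195 (-0.76 to 0.36). The calls of Bcl2a1b, Bcl2a1d and Bcl2a1a held in all 6 fits that left out 1 library. Bcl2l1 (without DZ 1, DZ 2 or LZ 2, adjusted p up to 0.0677) and Bid (without any 1 library, adjusted p up to 0.105) lost their calls. Bcl2l1 (with all 9 libraries in the fit) and Bid (with median centring) also lost their calls.

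Receptors and ligands through which B cells and helper T cells meet were lower in DZ in 5 of 31 genes (1.52% of all tested genes) and higher in none. The 5 include Cd86, whose protein the sort used, so its place in this count is not a finding. Cd40, the receptor for T cell help (chromosome 2, 164881136 to 164897154 in mm9), was at 39.5, 36.5 and 44.9 FPKM in the LZ libraries and 8.59, 8.16 and 9.55 in the DZ libraries (log2 change -2.08, SE 0.19, adjusted p = 0.000881). Tnfrsf14 (HVEM), the ligand of BTLA, was at 18.7, 20.02 and 28.4 FPKM in the LZ libraries and 5.35, 5.91 and 4.19 in the DZ libraries (log2 change -1.91, SE 0.25, adjusted p = 0.00522). Slamf1, a self-binding adhesion receptor of B and T cells, was at 23.3, 31.6 and 33.04 FPKM in the LZ libraries and 9.33, 10.3 and 10.99 in the DZ libraries (log2 change -1.42, SE 0.21, adjusted p = 0.0104). Every DZ library was below every LZ library in each of them. Il21r, the receptor for the helper cytokine IL-21, was the fifth gene besides Cd86 and fell from 62.2 to 35.8 FPKM (adjusted p = 0.0463). Icosl, the ICOS ligand, was at 27.5, 33.2 and 26.4 FPKM in the LZ libraries and 14.8, 16.8 and 8.92 in the DZ libraries, without overlap, and missed the threshold (log2 change -1.09, adjusted p = 0.0556). Among 13 tested genes for tumour necrosis factor receptors and ligands, 13 had a change below 0 and 4 passed: Cd40, Tnfrsf14, Lta and Tnf. Lta and Tnf, neighbouring cytokine genes on chromosome 17, fell by 1.58 and 1.44 (adjusted p = 0.0115 and 0.0307). The calls of Cd40, Tnfrsf14 and Slamf1 held in all 6 fits that left out 1 library. Il21r (without any 1 library, adjusted p up to 0.138), Lta (without LZ 2, adjusted p up to 0.0509) and Tnf (without DZ 2, DZ 3, LZ 2 or LZ 3, adjusted p up to 0.116) lost their calls. Il21r (with a pseudocount of 0.1) also lost its call.

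**Figure D4:**
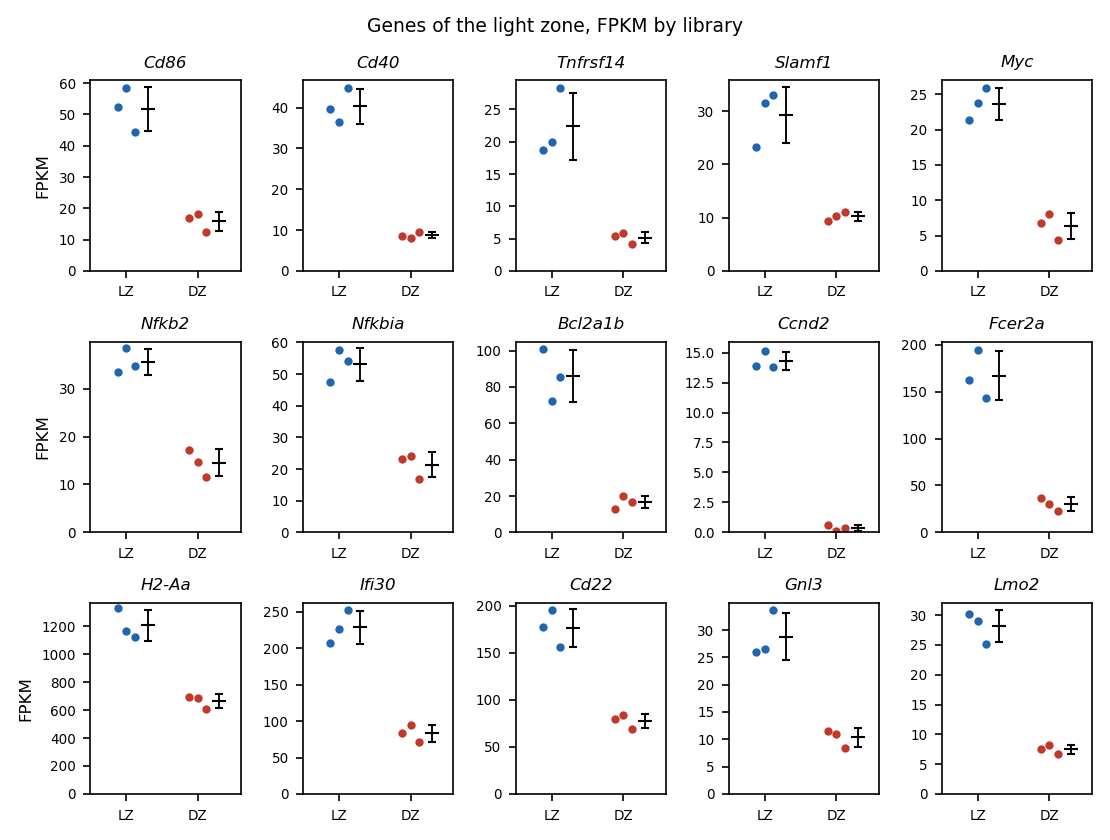
FPKM of 15 genes lower in the dark zone in each library, with blue points for the 3 LZ and red points for the 3 DZ libraries and a black bar for the mean ± SD of each group. All 15 passed at an adjusted p under 0.05 and none has a DZ value inside the LZ range.

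Of 33 genes of the antigen receptor and its signalling 4 fell in DZ (1.52% of all tested genes did). Among them were Cr2, Lat2 and Cd22, which are a coreceptor, an adaptor and an inhibitory receptor. Cr2, the complement receptor CD21, was at 47.4, 55.7 and 42.5 FPKM in the LZ libraries and 19.3, 16.3 and 16.3 in the DZ libraries (log2 change -1.43, SE 0.19, adjusted p = 0.00522). Cd22, an inhibitory sialic acid receptor, was at 177, 196 and 156 FPKM in the LZ libraries and 79.6, 83.8 and 69.2 in the DZ libraries (log2 change -1.17, SE 0.16, adjusted p = 0.00615). The zones did not overlap in either gene. Lat2, an adaptor downstream of the receptor, had a change of -1.304 (adjusted p = 0.00772). The receptor's signalling chains Cd79a and Cd79b had changes of -0.24 (95% interval -0.58 to 0.10) and -0.17 (-0.47 to 0.14), and the kinases Syk, Lyn and Btk 0.13, 0.14 and 0.08. Of 19 genes that antigen receptor signals induce within minutes to hours, 2 fell. Myc, the growth regulator found in few, recently helped light zone cells, was at 21.4, 23.8 and 25.9 FPKM in the LZ libraries and 6.72, 8.06 and 4.35 in the DZ libraries (log2 change -1.77, SE 0.25, adjusted p = 0.00796). Egr1, a zinc finger factor, was at 23.5, 17.6 and 20.1 FPKM in the LZ libraries and 9.5, 9.61 and 4.99 in the DZ libraries (log2 change -1.28, SE 0.27, adjusted p = 0.0398) and is also on the list of genes that tissue handling induces, of which it alone passed among 13. The calls of Cr2, Cd22, Lat2 and Myc held in all 6 fits that left out 1 library. Egr1 (without any 1 library, adjusted p up to 0.118) lost its call. Egr1 (with a pseudocount of 0.1) also lost its call.

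Of 20 genes of antigen presentation on MHC class II 8 fell in DZ (1.52% of all tested genes did), 19 had a change below 0, 16 had all DZ libraries below all LZ libraries (17.7% of all tested genes), and the median was -0.73. The changes were modest in size and carried by abundant transcripts. Cd74, the invariant chain, was at 4459, 3864 and 3904 FPKM in the LZ libraries and 2533, 2614 and 1927 in the DZ libraries (log2 change -0.799, SE 0.15, adjusted p = 0.0266). H2-Aa, the alpha chain of I-A, was at 1330, 1168 and 1120 FPKM in the LZ libraries and 695, 688 and 611 in the DZ libraries (log2 change -0.86, SE 0.13, adjusted p = 0.0115). H2-Ab1, its beta chain, and H2-Eb1, the beta chain of I-E, had changes of -0.78 and -0.71 (adjusted p = 0.0266 and 0.0473). No DZ library reached the LZ range in any of these. The peptide-loading side moved the same way: H2-DMb1, H2-DMb2 and H2-Oa had changes of -0.996, -0.91 and -1.06 (adjusted p = 0.0171, 0.0114 and 0.0389). Ifi30, the lysosomal thiol reductase that unfolds antigen, had the largest change of the list and was at 208, 226 and 253 FPKM in the LZ libraries and 83.9, 94.4 and 71.1 in the DZ libraries (log2 change -1.46, SE 0.16, adjusted p = 0.00237). Ciita, the class II transactivator, was at 58.01, 61.3 and 66.6 FPKM in the LZ libraries and 45.8, 37.2 and 34.7 in the DZ libraries and did not pass (log2 change -0.65, SE 0.17, adjusted p = 0.0886). Of 20 class I genes, Tapbp (tapasin) and H2-K1 fell, with changes of -0.98 and -0.795 (adjusted p = 0.0255 and 0.0467), and the list's median was -0.51. In bulk samples like these, fewer cells with a transcript and less RNA per cell cannot be told apart. Without LZ replicate 1, 1 of the class II genes was called, and without other single libraries up to 7 were. The call of Ifi30 held in all 6 fits that left out 1 library. H2-DMb2 (without LZ 1, adjusted p up to 0.051), H2-Aa (without LZ 1 or LZ 2, adjusted p up to 0.0582) and H2-DMb1 (without LZ 1 or LZ 2, adjusted p up to 0.0636) lost their calls. H2-Oa (without DZ 2, DZ 3, LZ 1 or LZ 2, adjusted p up to 0.129), Cd74 (without DZ 1, DZ 2, LZ 1, LZ 2 or LZ 3, adjusted p up to 0.111) and H2-Ab1 (without DZ 1, DZ 2, LZ 1, LZ 2 or LZ 3, adjusted p up to 0.107) lost their calls. H2-Eb1 (without DZ 1, DZ 2, LZ 1, LZ 2 or LZ 3, adjusted p up to 0.148), Tapbp (without any 1 library, adjusted p up to 0.0911) and H2-K1 (without any 1 library, adjusted p up to 0.153) lost their calls. H2-Oa (with a pseudocount of 0.1), Cd74 (with quantile normalization), H2-Eb1 (with a pseudocount of 0.1) and H2-K1 (with all 9 libraries in the fit and a pseudocount of 0.1) also lost their calls. With voom on implied fragments, Cd74, H2-Aa, H2-Ab1, H2-Eb1 and H2-DMb2 lost their calls too.

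The largest falls in DZ included an enzyme, an IgE receptor and several genes outside the lists. Il4i1, a secreted amino acid oxidase of activated B cells, was at 97.8, 67.4 and 67.3 FPKM in the LZ libraries and 4.08, 10.9 and 1.33 in the DZ libraries (log2 change -3.89, SE 0.47, adjusted p = 0.00421); its locus overlaps Tbc1d17 and a read-through gene, whose mean levels were 5.16 and 7.11 FPKM in LZ and 4.19 and 4.91 in DZ. Fcer2a, the low-affinity IgE receptor CD23, was at 162, 195 and 143 FPKM in the LZ libraries and 37.05, 30.8 and 22.7 in the DZ libraries (log2 change -2.44, SE 0.21, adjusted p = 0.000586). Both genes separated the zones by a wide margin. Ppap2a, a lipid phosphate phosphatase, was at 9.27, 9.94 and 9.61 FPKM in the LZ libraries and 1.697, 0.466 and 0.573 in the DZ libraries (log2 change -2.53, SE 0.32, adjusted p = 0.00504), and Cfp, properdin of the complement system, at 19.2, 7.14 and 13.3 FPKM in the LZ libraries and 1.99, 1.898 and 0.985 in the DZ libraries (log2 change -2.36, SE 0.36, adjusted p = 0.0115). Pglyrp1, a peptidoglycan recognition protein, was at 11.5, 8.85 and 8.85 FPKM in the LZ libraries and 0.828, 0.656 and 2.12 in the DZ libraries (log2 change -2.33, SE 0.32, adjusted p = 0.00772). Grm6, Ubxn11 and Ccdc17 fell by 2.41, 2.35 and 2.33 (adjusted p = 0.00522, 0.0215 and 0.0197). Cfp is also on the macrophage and dendritic cell list, whose sums are given above. Timm10 was at 17.6, 19.8 and 15.6 FPKM in the LZ libraries and 2.56, 4.74 and 0 in the DZ libraries (adjusted p = 0.0266). Mir719 was at 245, 429.7 and 480.2 FPKM in LZ and 7.82e-05, 0.00156 and 0.000482 in DZ, a value over a short hairpin inside Nupl1 and therefore uncertain. Cd52, a small surface glycoprotein, was the most abundant called gene with a change below -1, at 1253, 1048 and 1039 FPKM in the LZ libraries and 446, 461 and 429.9 in the DZ libraries (log2 change -1.31, SE 0.13, adjusted p = 0.00131), with the groups apart. The calls of Il4i1, Fcer2a, Ppap2a, Cfp, Pglyrp1, Grm6, Cd52 and Mir719 held in all 6 fits that left out 1 library. Ubxn11 (without DZ 3 or LZ 1, adjusted p up to 0.0732), Ccdc17 (without LZ 1 or LZ 2, adjusted p up to 0.0735) and Timm10 (without DZ 1, LZ 1, LZ 2 or LZ 3, adjusted p up to 0.0997) lost their calls. Pglyrp1 (with all 9 libraries in the fit), Ubxn11 (with a pseudocount of 0.1), Ccdc17 (with a pseudocount of 0.1) and Timm10 (with all 9 libraries in the fit and a pseudocount of 0.1) also lost their calls.

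Growth genes of the nucleolus, where ribosomes are assembled, lay on the LZ side. Of 45 nucleolar genes 5 fell (Gnl3, Rrp9, Nop2, Nop56 and Mybbp1a), 43 were below 0 (6185 of all 9463), 30 had DZ below LZ without overlap (17.7% of all tested genes), and the median was -0.67. Their mean level on the log2(FPKM + 1) scale was 4.25, 4.41 and 4.28 in the LZ libraries and 3.72, 3.81 and 3.4 in the DZ libraries. Gnl3 (nucleostemin) was at 26.1, 26.6 and 33.7 FPKM in the LZ libraries and 11.6, 11 and 8.43 in the DZ libraries (log2 change -1.39, SE 0.21, adjusted p = 0.0114). Nop56, a core protein of snoRNA particles, was at 60.7, 67.9 and 58.4 FPKM in the LZ libraries and 26.5, 36.5 and 25.2 in the DZ libraries (log2 change -1.07, SE 0.19, adjusted p = 0.0194). Both had separate groups. Nop56 overlaps Idh3b in the files, and Gnl3 overlaps Glt8d1 and the short RNA Snord69, the last at 568 FPKM in LZ and 0 in DZ in mean level, the same direction as Gnl3; its part in the value of Gnl3 was not tested. Of the ribosomal proteins themselves 0 of 82 were called by limma, with 4 at an unadjusted p under 0.05 (1 higher and 3 lower), 0 called with voom weights, and a median of -0.10 (0.07 under median centring). Of 27 genes of amino acid uptake and synthesis 3 fell (1.52% of all tested genes did): Slc7a5, the large neutral amino acid transporter, by 1.05, Gcsh, of the glycine cleavage system, by 1.78, and Mthfd1, of one-carbon metabolism, by 0.99 (adjusted p = 0.0298, 0.025 and 0.0339). The call of Gnl3 held in all 6 fits that left out 1 library. Mybbp1a (without any 1 library, adjusted p up to 0.102) lost its call. Rrp9 (without DZ 1, DZ 3, LZ 1, LZ 2 or LZ 3, adjusted p up to 0.106), Nop2 (without DZ 1, DZ 2, DZ 3, LZ 1 or LZ 3, adjusted p up to 0.11) and Nop56 (without DZ 1, DZ 3, LZ 1 or LZ 2, adjusted p up to 0.0812) lost their calls. Slc7a5 (without any 1 library, adjusted p up to 0.103), Gcsh (without DZ 1, DZ 3, LZ 1, LZ 2 or LZ 3, adjusted p up to 0.0915) and Mthfd1 (without any 1 library, adjusted p up to 0.121) lost their calls. Rrp9 (with all 9 libraries in the fit), Nop2 (with median centring, quantile normalization and all 9 libraries in the fit), Slc7a5 (with median centring, quantile normalization and all 9 libraries in the fit), Gcsh (with all 9 libraries in the fit) and Mthfd1 (with median centring and quantile normalization) also lost their calls.

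In the lists of energy, lipid and organelle genes that follow, counts of calls can be read beside the 2.08% called over all genes. Of 33 genes of cholesterol and fatty acid synthesis none passed, although 31 had a change below 0 and the median was -0.49. Unadjusted p-values under 0.05 were found for 16 of the 33, all lower in DZ, and limma with voom weights called 0. Glycolysis genes had 1 call of 22, Slc2a6, a GLUT family transporter, at 15.9, 6.93 and 9.29 FPKM in the LZ libraries and 3.34, 0.443 and 1.23 in the DZ libraries (log2 change -2.21, SE 0.43, adjusted p = 0.0295). Its LZ and DZ libraries were apart, at low levels in DZ. Respiratory chain and ATP synthase genes had 1 call of 84, Ndufb4, of complex I, which fell by 0.99 (adjusted p = 0.0194), and a median of 0.06. In the endoplasmic reticulum list 2 of 38 fell, the chaperone Hspa5 (BiP) and the disulfide isomerase Pdia6, with changes of -1.096 and -0.996 (adjusted p = 0.017 and 0.0382). In the lysosome list 3 of 38 fell: Cd68, at 6.09, 4.73 and 2.14 FPKM in LZ and 0.655, 0 and 0.539 in DZ, the progranulin gene Grn and the cathepsin gene Ctsc (adjusted p = 0.0392, 0.0184 and 0.0469). Cd68 and Grn are expressed strongly by macrophages, whose marker sums are given above. Slc2a6 (without DZ 2, DZ 3, LZ 1, LZ 2 or LZ 3, adjusted p up to 0.109), Ndufb4 (without DZ 1, DZ 2, LZ 1 or LZ 2, adjusted p up to 0.0812) and Hspa5 (without DZ 1, LZ 1 or LZ 2, adjusted p up to 0.0681) lost their calls. Pdia6 (without any 1 library, adjusted p up to 0.118), Cd68 (without DZ 1, DZ 2, DZ 3, LZ 1 or LZ 2, adjusted p up to 0.129) and Grn (without DZ 1, DZ 3, LZ 1 or LZ 2, adjusted p up to 0.0655) lost their calls. Ctsc (without any 1 library, adjusted p up to 0.147) lost its call. Slc2a6 (with median centring, quantile normalization and a pseudocount of 0.1), Ndufb4 (with median centring and all 9 libraries in the fit), Pdia6 (with a pseudocount of 0.1), Cd68 (with median centring, quantile normalization and a pseudocount of 0.1) and Ctsc (with median centring, quantile normalization and a pseudocount of 0.1) also lost their calls.

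Plasma cell genes gave 1 call. Igj, the joining chain of polymeric antibody, was at 99.96, 96.2 and 70.2 FPKM in the LZ libraries and 236, 213 and 153 in the DZ libraries (log2 change 1.16, SE 0.20, adjusted p = 0.0194), with the lowest DZ value above the highest LZ value. It alone passed among 11 plasma cell genes tested, whose median was -0.04. Prdm1, the factor that commits cells to the plasma cell fate, was at most 0.721 FPKM in any library, and Xbp1 had a change of 0.08 (95% interval -0.35 to 0.51). Igj (without DZ 1, DZ 2, LZ 2 or LZ 3, adjusted p up to 0.0812) lost its call.

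**Figure D5:**
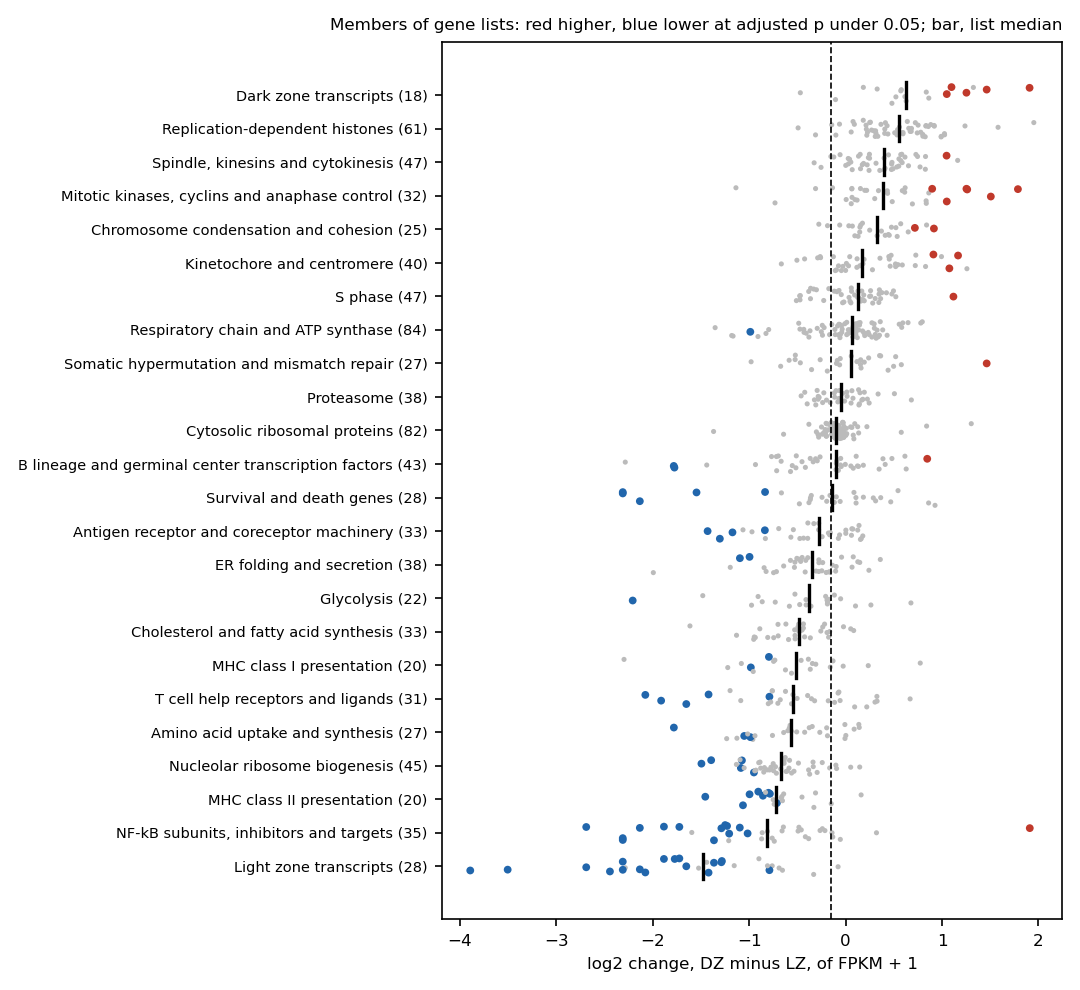
Log2 change, DZ minus LZ, of FPKM + 1 for every tested member of 24 gene lists, 1 point per gene, with red points called higher, blue points called lower, black bars at list medians and a dashed line at the median of all 9463 tested genes (-0.15); list sizes are in parentheses. Dark zone, histone and mitosis lists have medians above 0, while nucleolar, MHC class II, NF-kB and light zone lists lie from -0.67 to -1.48.

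The lists of transcripts that earlier work assigned to the zones show the size of the contrast in these libraries. Of 18 tested dark zone transcripts 5 were higher in DZ (Gcet2, Polh, Ccnb2, Cxcr4 and Cdc20), against 0.56% of all tested genes. The sort used the protein of Cxcr4, so its place in this count is not a finding. In 15 the zones separated with DZ above (5.23% of all tested genes), and the median was 0.62. Of 28 light zone transcripts 17 were lower in DZ (1.52% of all tested genes were) and 21 separated the zones with DZ below (17.7%). All 28 had a change below 0 and the median was -1.48. The 2 lists were chosen with results of these data known, so their direction is not independent evidence. When 1 library was left out, 2 to 4 of the dark zone transcripts and 13 to 17 of the light zone transcripts were called.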

How the data were processed

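RNA-seq libraries of sorted spleen germinal center B cells were used, 3 from the dark zone and 3 from the light zone; the other 3 libraries of the series entered 1 alternative fit. Per the labels' protocols, the NEBNext Ultra kit was used on total RNA taken up in TRIzol. The deposited unit is FPKM per gene, from the authors' Cufflinks tables. The build mm9 and the tools Cufflinks 2.1.1 and TopHat2 2.0.8 are listed in the submitters' processing notes without role or order, and the strand and the depth are not given in the sources used here. From the intervals around the FPKM, the implied relative depth of the 6 libraries was 0.932 to 1.095.

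Entries with repeated symbols (716) and failed genes (7) were dropped, and genes with at least 1 FPKM in at least 3 of the 6 libraries were kept. limma 3.58.1 (R 4.3.3) with an intensity trend was fitted to log2(FPKM + 1) by zone, two-sided, with Benjamini-Hochberg adjustment over 9463 genes and a threshold of 0.05. The median half-width of the 95% interval of a change was 0.65. Code was tested on simulated data. Alternatives covered the pseudocount (0.1 and 5), the filter (none, or 5 FPKM), quantile normalization, median centring, all 9 libraries in the fit, a replicate block, voom weights and leaving out each library. Promoters came from RefSeq windows on GRCm38.p6, matched for 7633 genes by symbol or synonym.

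The members and the 58 gene lists were chosen with earlier results of these data known, so lists are given by counts and medians with no test of their own. Genes were named by rule: the sort genes, the 12 largest rises and falls without overlap, the 5 most abundant calls in each direction, up to 4 called members of each list (or the 2 with the lowest p where none passed) and a set of anchor genes. Others are marked as named after their values were seen, and results for some genes are not reported here.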

Additional observations from a re-analysis of the deposited data

How the results depend on the processing

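The count of 197 calls was 160 to 249 under the pseudocount, scaling, stricter filter, 9-library and replicate block alternatives and with voom on implied fragments, and fell to 47 (11 higher and 36 lower in DZ) with no expression filter, which tested 14110 genes. Genes called higher numbered 100 with quantile normalization and 124 with median centring, against 53. Leaving out 1 library gave 78 to 130 calls, with 10 to 35 higher and 57 to 97 lower; the fewest higher calls came without DZ replicate 1 or 2 (10 and 13) and the most calls without LZ replicate 3. Fewer samples enter each such fit.

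The labels do not say what the replicate number marks. Deviations of same-numbered libraries of the 2 zones correlated at 0.07, 0.01 and 0.068, against -0.093 to 0.028 for different numbers. LZ replicate 2 correlated best with another number. With 3 libraries per zone these small values cannot decide whether same-numbered libraries share a source. A replicate block gave 193 calls, 51 higher and 142 lower, of which 156 were among the 197. Among the genes named here the block left Adhfe1, Bcl3, Bid, Ccr6, Cd68, Ceacam16, Ctsc, Il21r, Marcks, Mthfd1, Mybbp1a, Nfkbie, Nop2, Nuf2, Slc7a5 and Tnf without a call.

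FPKM tables hold no counts. Fragments implied by the FPKM intervals, with 1 factor per gene, gave 230 calls with voom (65 higher, 165 lower). Besides the class II genes given above, this form left Adhfe1, Bcl3, Ccl22, Ccr6, Cd52, Cd68, Ceacam16, Dnase1, Ebi3, Gcsh and Hmgn2 without a call. Among the genes named here it also left Mif, Mir719, Ndufb4, Ppap2a, Slc2a6, Tifa, Timd2, Tmsb15b2, Tnf and Ubxn11 without a call. Both remaining forms were chosen after seeing the data: voom weights alone on log2(FPKM + 1) gave 73 calls (12 higher, 61 lower), and voom on fragments implied library by library gave 7 (2 higher, 5 lower). In the last form the width of each library's interval sets the value in place of its FPKM. It turned the sign of 16 called genes named by rule, none past the threshold, with changes of -2.42 for A130040M12Rik, -0.59 for Hmgn2, -1.62 for Pou2af1, -3.99 for Hmgb2, -1.997 for Neil1 and -4.44 for Igj, which were positive before. Those that had been negative were 0.008 for Cd74, 0.096 for H2-Aa, 0.028 for H2-Ab1, 0.27 for Cd52, 0.22 for H2-Eb1, 1.41 for Ifi30, 1.91 for H2-DMb1, 0.43 for H2-DMb2, 0.55 for H2-K1 and 1.12 for Ndufb4. No other setting reversed a called gene that was named by rule. Signs of the other genes in the text were not compared across settings. Among genes named by rule and without a call, some near 0 turned sign: Bcl6 (-0.044) and Pax5 (-0.05) had their highest changes, 0.121 and 0.115, under median centring and also turned with quantile normalization and without some single libraries, Fas (-0.195) was at 0.054 without LZ replicate 2, Gapdh (0.103) at -0.005 without DZ replicate 1 and Actb (-0.277) at 0.203 with quantile normalization. The voom form on single libraries also turned Cd79a, Gapdh, Hist1h4a, Rpl37 and Sdhb, none of them called.

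The depth is unknown, and 13 of the 197 calls include a library listed at 0.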

Other observations

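Other genes not described so far were lower in DZ. Of 8 tested Gimap genes, small GTPases of lymphocytes, 7 had a change below 0, in 7 DZ lay below LZ without overlap (17.7% of all tested genes), and Gimap4 fell, at 62.9, 84.7 and 62.9 FPKM in the LZ libraries and 23.5, 23.04 and 14.4 in the DZ libraries (log2 change -1.76, SE 0.23, adjusted p = 0.00522). Malat1, a nuclear long noncoding RNA, was at 200.3, 248 and 176 FPKM in the LZ libraries and 69.98, 62.1 and 57.97 in the DZ libraries (log2 change -1.69, SE 0.17, adjusted p = 0.00131), and Havcr1 (TIM-1), a phosphatidylserine receptor of regulatory B cells, at 44.9, 35.6 and 44.1 FPKM in the LZ libraries and 14.04, 18.3 and 16.2 in the DZ libraries (log2 change -1.31, SE 0.19, adjusted p = 0.0101). Ncf1, a subunit of the NADPH oxidase, was at 47.03, 40.5 and 43.4 FPKM in the LZ libraries and 11.9, 16.5 and 11.5 in the DZ libraries (log2 change -1.65, SE 0.20, adjusted p = 0.00421). The last 3 were named after their values were seen and were called in the 6 fits without 1 library and in the 9 other settings that make up the set of 32 above. The call of Gimap4 held in all 6 fits that left out 1 library.

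Some called genes were neighbours. With gaps of up to 100 kb in mm9, 30 of the 197 called genes fell into 13 runs of 2 or more, and no run held both directions: 12 were lower in DZ and 1 higher. They included Lta with Tnf, Bcl3 with Ceacam16, Timd2 with Havcr1, Gstt2 with Mif, and 2 stretches of the class II region on chromosome 17. No test of this clustering was made, and copies of 1 family, such as H2-Q8 and H2-Q9, share fragments.

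A130040M12Rik, a noncoding transcript at 277, 291 and 255 FPKM in the LZ libraries and 555, 467 and 431 in the DZ libraries (log2 change 0.81, SE 0.14, adjusted p = 0.0202), and Gm9786, at 117, 155 and 109 FPKM in the LZ libraries and 238, 289.9 and 209 in the DZ libraries (log2 change 0.95, SE 0.18, adjusted p = 0.0266), were among the 5 most abundant genes higher in DZ. Gm9786 overlaps Oaz1 in the files and A130040M12Rik overlaps Zfp808, so fragments of these pairs cannot be told apart where strand is not used. A130040M12Rik (without DZ 1, DZ 2, LZ 1, LZ 2 or LZ 3, adjusted p up to 0.0882) and Gm9786 (without DZ 1, DZ 2, LZ 1 or LZ 3, adjusted p up to 0.094) lost their calls. A130040M12Rik (with all 9 libraries in the fit) also lost its call.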
